A study of Mus musculus with 6 samples.

Results

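The Toll-like receptor genes Tlr1, Tlr2, Tlr3, Tlr4, Tlr6, Tlr7 and Tlr9, the RP105 gene Cd180 with its partner gene Ly86, and the transport chaperone gene Unc93b1 were followed in B cells of wild-type (WT) mice and of mice whose B cells lack the alpha form of the scaffold that holds protein phosphatase 2A together (PP2Aa-deficient). These 10 genes were taken by exact symbol from a table of 22788 genes, and all 10 were found. The table held 3 WT and 3 PP2Aa-deficient libraries. Both groups were C57BL/6 and 8 weeks of age per the labels. The PP2Aa-deficient mice carried a Cre recombinase that acts in B cells and were flox/flox for Ppp2r1a, the gene for the scaffold subunit. No Cre allele was named for the WT group, so the Cre allele and the targeting of Ppp2r1a cannot be told apart. The labels named spleen as the tissue, while their protocols described cells washed from the peritoneal cavity, and this was not settled. The labels did not state that libraries came from separate mice, so p-values measure only the spread between these libraries.

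Toll-like receptors recognise molecules of microbes and pass the signal to NF-kB and interferon regulatory factors through the adaptors MyD88 and TRIF. TLR1, TLR2, TLR4 and TLR6 sit at the cell surface and bind bacterial lipopeptides or lipopolysaccharide, whereas TLR3, TLR7 and TLR9 bind nucleic acids in endosomes, where UNC93B1 delivers them. RP105, encoded by Cd180, resembles TLR4 outside the cell but lacks the signalling domain inside it. It is held at the B cell surface by MD-1, the product of Ly86. B cells are unusual among lymphocytes in responding directly to ligands of TLR9, TLR7 and RP105.

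Promoter sequences of 7 of the 10 genes were found in RefSeq (GRCm38.p6), each covering 250 bases before and 50 bases from an annotated start. None was found for Tlr4, Tlr7 and Unc93b1. The first-listed promoter windows of Tlr1, Tlr9, Cd180 and Ly86 are printed here, the highest of the 7 genes by mean transcript level. Capitals mark GAGGAA, the core of the PU box, a site bound by ETS factors such as PU.1, and ATGCAAAT, the octamer bound by Oct factors. Both were marked on either strand, and other forms of the ETS site were not searched for.
Tlr1 promoter, GRCm38.p6, chr5:64933509-64933808, minus strand: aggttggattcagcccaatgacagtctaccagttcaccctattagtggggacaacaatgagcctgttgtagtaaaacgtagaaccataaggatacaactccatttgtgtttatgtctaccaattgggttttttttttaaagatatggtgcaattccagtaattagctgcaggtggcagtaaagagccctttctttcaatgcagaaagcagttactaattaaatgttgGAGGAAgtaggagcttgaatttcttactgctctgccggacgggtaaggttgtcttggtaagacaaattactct
Tlr9 promoter, GRCm38.p6, chr9:106222348-106222647, plus strand: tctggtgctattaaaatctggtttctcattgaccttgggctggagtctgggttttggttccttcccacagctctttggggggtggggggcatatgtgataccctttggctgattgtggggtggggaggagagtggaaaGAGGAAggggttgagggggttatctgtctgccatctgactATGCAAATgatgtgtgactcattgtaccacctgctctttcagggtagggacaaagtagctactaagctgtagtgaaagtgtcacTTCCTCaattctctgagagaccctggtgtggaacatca
Cd180 promoter, GRCm38.p6, chr13:102693297-102693596, plus strand: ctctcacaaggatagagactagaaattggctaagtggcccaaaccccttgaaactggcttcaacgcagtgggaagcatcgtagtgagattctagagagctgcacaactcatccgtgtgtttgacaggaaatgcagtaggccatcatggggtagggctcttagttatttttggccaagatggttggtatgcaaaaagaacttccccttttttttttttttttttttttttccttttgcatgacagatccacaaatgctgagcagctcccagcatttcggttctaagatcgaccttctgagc
Ly86 promoter, GRCm38.p6, chr13:37345095-37345394, plus strand: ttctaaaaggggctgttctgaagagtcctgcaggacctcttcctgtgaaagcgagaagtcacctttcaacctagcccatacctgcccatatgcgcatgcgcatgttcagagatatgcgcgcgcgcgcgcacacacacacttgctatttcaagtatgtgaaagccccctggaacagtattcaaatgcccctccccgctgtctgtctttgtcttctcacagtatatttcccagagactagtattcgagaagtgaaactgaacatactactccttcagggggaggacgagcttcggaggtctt
The Tlr1 window held GAGGAA 23 bases before the start. The Tlr9 window held GAGGAA 112 bases before the start, its reverse complement TTCCTC from base 13 after the start, and ATGCAAAT 72 bases before the start. The Cd180 and Ly86 windows held neither motif, nor did the second annotated windows of Tlr1 and Cd180. Of 32851 promoter windows of this length, 28.3% held GAGGAA and 1.74% held ATGCAAAT on either strand, and the motifs do not overlap each other in the Tlr9 window. The windows also differed in CG dinucleotides. The Tlr9 window held 0, the Tlr1 window 3, the Cd180 window 5 and the Ly86 window 13, against a median of 7 over all windows, of which 5.43% held 0. The second windows of Tlr1 and Cd180 held 9 and 5. These matches describe letters only.

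Expression is given in FPKM, fragments scaled by transcript length and library size, which allows levels of different genes to be compared. From steps of 1 fragment in the low values, the libraries held about 2020000 to 3640000 fragments, and WT replicate 2 was 1.76 times as deep as WT replicate 1. The targeted gene Ppp2r1a was at 85.7, 85.4 and 83.7 FPKM in the 3 WT libraries, against 31.3, 56.2 and 28.2 FPKM in PP2Aa-deficient replicates 1 to 3, so PP2Aa-deficient replicate 2 kept the most. All 7 B cell markers summed here, Cd79a, Cd79b, Ms4a1, Pax5, Cd22, Blk and Fcrla, were above 1 FPKM in every library. Their sum, mostly Cd79a and Cd79b, was 3085 to 3205 FPKM over the WT libraries, against 2956 to 3378 over the PP2Aa-deficient ones. Within it Fcrla was lower without overlap, at 146 to 161 FPKM over the WT libraries, against 85.6 to 121 over the PP2Aa-deficient ones. Ms4a1 was higher without overlap, at 276 to 371 and 376 to 390 FPKM, and the rest overlapped. Replicate 1 of each group held Xist, the transcript of an inactive X chromosome, at 65.2 (WT) and 84.5 FPKM (PP2Aa-deficient), whereas the other 4 libraries held at most 0.116. In bulk libraries, fewer cells of a type and less RNA per cell cannot be told apart.

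All 10 genes were above 0 in every library, and their mean levels over the 6 libraries spanned from 0.732 to 313 FPKM. Ly86 was highest at 313 FPKM and Unc93b1 followed at 265, above 98.0% and 97.8% of tested genes. Their ranges overlapped, yet Ly86 exceeded Unc93b1 in 6 of 6 libraries. Cd180 at 71.5 FPKM, Tlr9 at 29.5, Tlr1 at 12.4 and Tlr7 at 4.53 came next, and no range in this stretch overlapped its neighbour. Cd180 thus lay 2.43 times above Tlr9, Tlr9 2.38 times above Tlr1, and Tlr1 2.73 times above Tlr7. Tlr2 (1.13 FPKM), Tlr6 (1.09), Tlr4 (0.967) and Tlr3 (0.732) formed the low end, and each overlapped its neighbour in this order. Tlr9 alone made up 60.6% ± 2.77 of the summed FPKM of the 7 Tlr genes over the WT libraries, against 56.7% ± 2.52 over the PP2Aa-deficient ones (SD, n = 3). With the longest GENCODE M21 transcript as length, whose build may differ from that of the files, the low 4 rested on about 5 to 16 fragments per library, Tlr7 on 33 to 53, Tlr1 on 53 to 135 and Ly86 on 1608 to 2759.

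**Figure D1:**
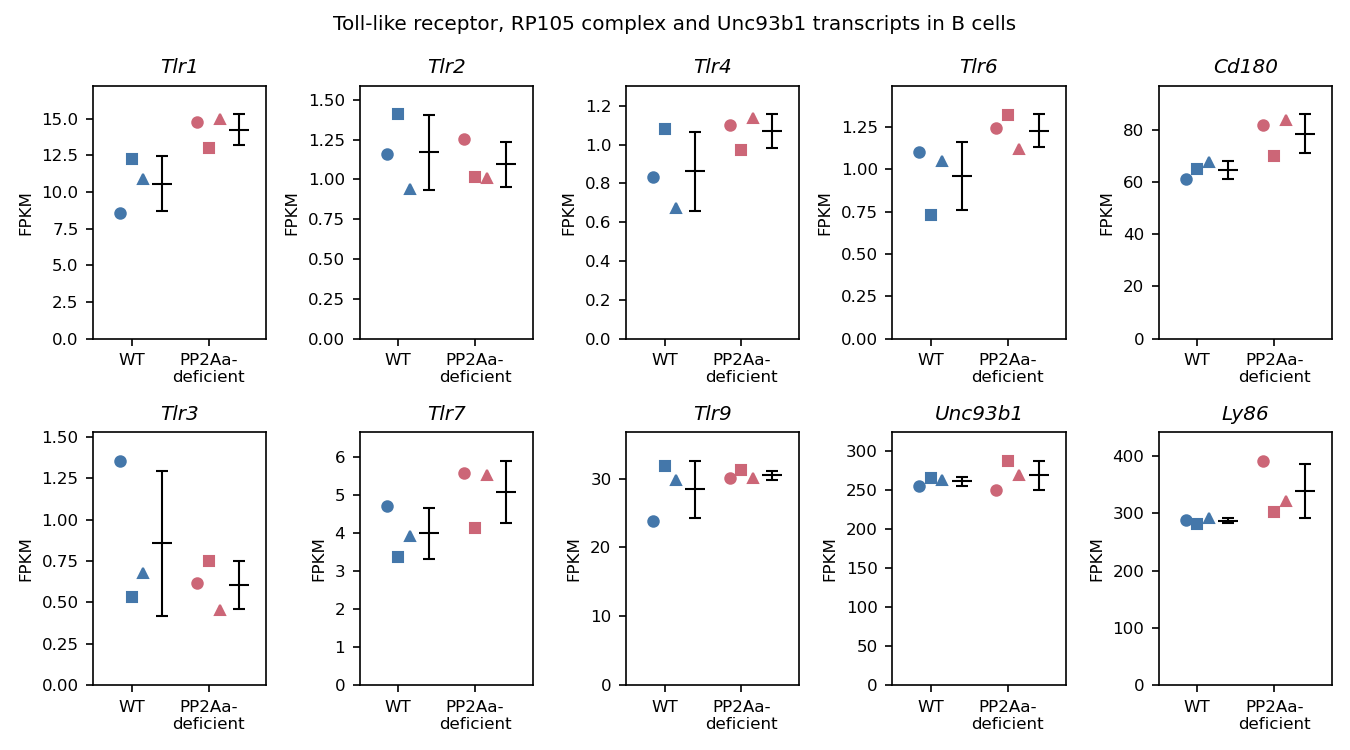
FPKM (y axis, from 0, scaled per gene) of the 10 genes in WT (blue) and PP2Aa-deficient (red) libraries, with circle, square and triangle for replicates 1, 2 and 3 and black bars for mean ± SD (n = 3). Tlr1, Tlr6, Cd180 and Ly86 were higher in every PP2Aa-deficient library than in every WT library, in Tlr6 only narrowly.

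The question for these genes was whether PP2Aa-deficient B cells carried more or less receptor transcript. Genes at 1 FPKM or more in at least 3 libraries were tested with limma on log2(FPKM + 1), 9425 in all, and 9 of the 10 receptor and partner genes were among them. None of the 9 passed at an adjusted p of 0.05, as was true of nearly all genes, of which 0% were called higher and 0.0318% lower. That split of calls over all genes, 0 higher and 3 lower, became 7 and 4 with quantile normalization. The targeted gene Ppp2r1a was not called either (log2 change -1.18, SE 0.23, limma adjusted p = 0.168). At an unadjusted limma p under 0.05, 1 of the 9 was higher and 0 lower, against 5.06% higher and 4.41% lower of all tested genes. In 4 of the 9 (Tlr1, Tlr6, Cd180 and Ly86) every PP2Aa-deficient library exceeded every WT library, and in 0 the reverse held, against 7.70% and 7.40% of tested genes. Of these, Tlr6 was separated only narrowly and rested on about 8 to 11 fragments per library. Tested members above WT numbered 8 of 9, with a median log2 change of 0.19, while 48.9% of all tested genes lay above WT, with a median of -0.0068.

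Among the surface receptors, Tlr1, whose product pairs with TLR2 on triacylated lipopeptides, was at 8.53, 12.3 and 10.9 FPKM in the WT libraries, against 14.7, 13.0 and 14.98 FPKM in the PP2Aa-deficient ones. Each PP2Aa-deficient library lay above each WT library, and WT replicate 1 was the lowest of the 6. The PP2Aa-deficient mean was 135% of WT, with a log2 change of 0.41 (SE 0.17, 95% interval 0.03 to 0.79). The limma p was 0.0365 unadjusted and 0.489 adjusted over all genes, so Tlr1 was not called. Without WT replicate 1 the log2 change was 0.28, with an unadjusted limma p of 0.112.

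Tlr6, the neighbour of Tlr1 on chromosome 5, encodes the partner of TLR2 on diacylated lipopeptides. It was at 1.10, 0.732 and 1.05 FPKM in the WT libraries, against 1.24, 1.32 and 1.123 FPKM in the PP2Aa-deficient ones. The groups did not overlap, but the closest values, WT replicate 1 and PP2Aa-deficient replicate 3, nearly met. The log2 change was 0.19 (SE 0.22), with an interval from -0.31 to 0.68 and a limma adjusted p of 0.849. Without WT replicate 2 the log2 change was 0.10. Tlr1 and Tlr6 transcripts share sequence: 13.6% of the 50-base words of Tlr1 occur in Tlr6, so the split of fragments between them is uncertain. In RefSeq Tlr6 also overlaps Fam114a1 and Mir574, and the use of strand in counting is not given. Summed, Tlr1 and Tlr6 measured 11.5 ± 1.71 FPKM over the WT libraries, against 15.5 ± 0.979 over the PP2Aa-deficient ones (SD, n = 3).

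Tlr2, the shared partner of TLR1 and TLR6, was at 1.16, 1.41 and 0.942 FPKM in the WT libraries, against 1.26, 1.02 and 1.01 FPKM in the PP2Aa-deficient ones. It was the 1 tested member below WT, with fully overlapping groups and a log2 change of -0.05 (SE 0.22, interval -0.55 to 0.45). Tlr4, the lipopolysaccharide receptor, was at 0.831, 1.08 and 0.676 FPKM in the WT libraries, against 1.10, 0.972 and 1.14 FPKM in the PP2Aa-deficient ones. WT replicate 2 reached into the PP2Aa-deficient range, and the log2 change was 0.16 (SE 0.22, interval -0.35 to 0.66), or 0.08 without WT replicate 3. At these levels a change of either direction within the intervals was not detectable for Tlr2, Tlr4 or Tlr6.

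Cd180 was at 61.0, 64.9 and 67.6 FPKM in the WT libraries, against 81.9, 69.9 and 83.6 FPKM in the PP2Aa-deficient ones. The groups did not overlap, and PP2Aa-deficient replicate 2 lay closest to WT. The mean was 122% of WT, with a log2 change of 0.28 (SE 0.12, interval -0.003 to 0.55) and a limma p of 0.0521 unadjusted and 0.530 adjusted. Ly86, whose product MD-1 holds RP105 at the surface, was at 289, 282 and 292 FPKM in the WT libraries, against 393, 303 and 322 FPKM in the PP2Aa-deficient ones. Again no PP2Aa-deficient library fell within the WT range, which was narrow, and replicate 2 lay closest to it. The mean was 118% of WT, with a log2 change of 0.23 (SE 0.12, interval -0.05 to 0.51) and a limma adjusted p of 0.612. Without PP2Aa-deficient replicate 1, the highest library, the log2 change of Ly86 was 0.12, with an unadjusted limma p of 0.369. The ratio of Ly86 to Cd180 was 4.47 ± 0.236 over the WT libraries, against 4.33 ± 0.472 over the PP2Aa-deficient ones (SD, n = 3), a difference smaller than the spread within either group. Both genes lie on chromosome 13, while Ppp2r1a does not. In GENCODE M21 Cd180 overlaps Mast4 on the opposite strand.

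**Figure D2:**
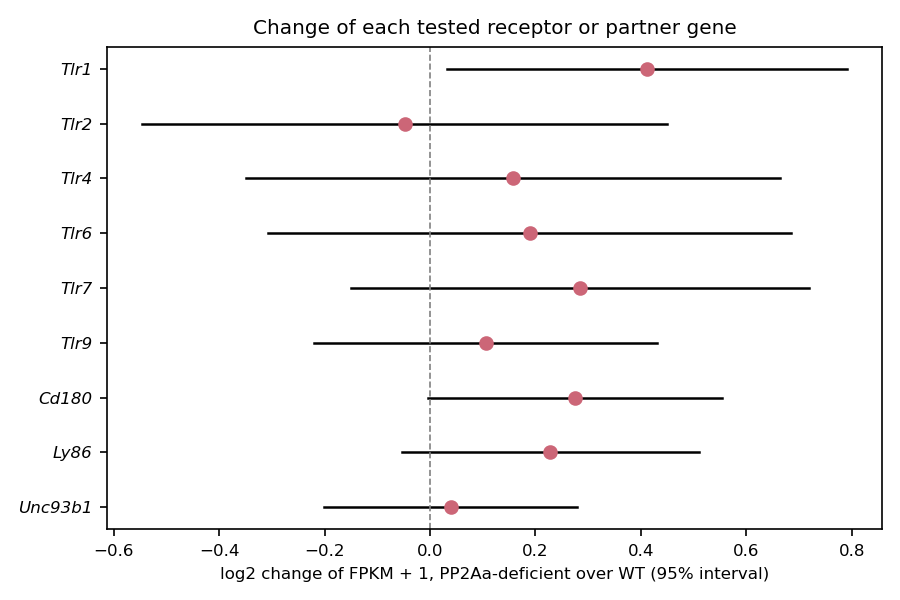
Log2 change of FPKM + 1 between PP2Aa-deficient and WT B cells (x axis, points) with its 95% limma interval (lines) for the 9 tested genes. Only the unadjusted interval of Tlr1, 0.03 to 0.79, lies wholly above 0, and no gene passed adjustment over all genes.

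Of the endosomal receptors, Tlr9, the sensor of unmethylated CpG DNA, was at 23.8, 31.8 and 29.8 FPKM in the WT libraries, against 30.0, 31.3 and 30.1 FPKM in the PP2Aa-deficient ones. The PP2Aa-deficient values lay within the WT range. The log2 change was 0.11 (SE 0.14, interval -0.22 to 0.43), and without WT replicate 1, the lowest library, it was -0.01. Tlr7, the sensor of single-stranded RNA, was at 4.70, 3.36 and 3.91 FPKM in the WT libraries, against 5.58, 4.13 and 5.52 FPKM in the PP2Aa-deficient ones. Only PP2Aa-deficient replicate 2 fell within the WT range. The log2 change was 0.28 (SE 0.19, interval -0.15 to 0.72) with a limma adjusted p of 0.701.

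Tlr7 lies on the X chromosome, and the library with Xist transcript was the highest of its group in both genotypes. In the 4 libraries without Xist the Tlr7 groups did not overlap, with a log2 change of 0.32 and an unadjusted limma p of 0.222. In these 4 libraries 19.3% of all tested genes were higher without overlap and 22.9% lower. Tlr3, the sensor of double-stranded RNA, was at 1.36, 0.536 and 0.679 FPKM in the WT libraries, against 0.616, 0.748 and 0.455 FPKM in the PP2Aa-deficient ones. Its groups overlapped, WT replicate 1 stood highest, and it did not meet the filter for testing. With no filter its log2 change in the limma fit over all genes was -0.19, with an adjusted p of 0.837.

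Unc93b1, needed for TLR3, TLR7 and TLR9 to reach endosomes, was at 254, 265 and 263 FPKM in the WT libraries, against 249, 287 and 268 FPKM in the PP2Aa-deficient ones. The groups overlapped, and the log2 change of 0.04 (SE 0.11) had an interval from -0.20 to 0.28, the narrowest of the 9. The ratio of Unc93b1 to Tlr9 was 9.28 ± 1.24 over the WT libraries, against 8.80 ± 0.449 over the PP2Aa-deficient ones (SD, n = 3), a difference smaller than the WT spread but not than that of the PP2Aa-deficient libraries.

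The other Toll-like receptor genes were low. Tlr5, Tlr8, Tlr11, Tlr12 and Tlr13 stayed below 1 FPKM in every library, and none met the filter. Tlr12 was at 0.734, 0.418 and 0.955 FPKM in the WT libraries, against 0.124, 0.301 and 0.128 FPKM in the PP2Aa-deficient ones, without overlap. Of the ligand-binding cofactors, Ly96, whose product MD-2 binds lipopolysaccharide for TLR4, was at 16.5, 5.91 and 8.33 FPKM in the WT libraries, against 11.7, 8.11 and 9.46 FPKM in the PP2Aa-deficient ones, with WT replicate 1 highest. Ly96 was thus at 10.2 ± 5.53 and 9.77 ± 1.84 FPKM (SD, n = 3), above Tlr4 in every library. Cd14 reached at most 1.88 FPKM, and Lbp was listed at 0 in all 6 libraries. Cd36, a co-receptor for lipopeptides that is also a marginal zone B cell marker, was at 23.9, 22.2 and 24.2 FPKM in the WT libraries, against 48.9, 29.2 and 34.4 FPKM in the PP2Aa-deficient ones (log2 change 0.62, SE 0.19, limma adjusted p = 0.369). Its groups did not overlap, and PP2Aa-deficient replicate 1 stood above the rest.

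The pathway around the receptors was described by 7 lists with 87 genes, all in the table and 75 tested, of which 0 passed limma over all genes. At an unadjusted limma p under 0.05, 2 of the 75 were higher and 8 lower, against 5.06% and 4.41% of all tested genes. Genes above WT numbered 30 and genes below it 45, with a median log2 change of -0.07, while 48.9% of all tested genes lay above WT and 51.1% below. Among the 12 genes of folding, transport and endosomal processing the median was 0.04, and Ifi30, a lysosomal thiol reductase, measured 268 ± 54.9 FPKM over the WT libraries, against 189 ± 10.8 over the PP2Aa-deficient ones (limma adjusted p = 0.374). The 23 tested adaptors, kinases and ubiquitin ligases divided into 11 above and 12 below WT. Chuk, a kinase of the NF-kB pathway, measured 4.68 ± 1.11 and 7.18 ± 1.26 FPKM (SD, n = 3), without overlap (limma adjusted p = 0.468). Tbk1, a kinase that activates interferon regulatory factors, measured 15.2 ± 1.38 and 11.6 ± 1.34, and Tab1, a partner of the TAK1 kinase, 2.18 ± 0.338 and 1.26 ± 0.048 FPKM, both without overlap and not called.

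Downstream of the receptors 0 genes were called, and the lists are given by how many members lay below WT, where 51.1% of all tested genes lay. Of the transcription factors 8 of 9 did (median log2 change -0.07), and Irf8 measured 154 ± 13.99 FPKM over the WT libraries, against 125 ± 12.2 over the PP2Aa-deficient ones (SD, n = 3), with overlapping groups and a limma adjusted p of 0.511. Of the inhibitors 10 of 13 did (median -0.17), and Nfkbib, which retains NF-kB in the cytoplasm, measured 37.4 ± 1.55 and 29.6 ± 1.67 FPKM without overlap (limma adjusted p = 0.438). Of the tested genes that Toll-like receptor ligands induce in B cells 10 of 16 did (median -0.16). Among these, the surface protein gene Cd83 was at 1305, 1385 and 1520 FPKM in the WT libraries, against 940, 1117 and 1005 FPKM in the PP2Aa-deficient ones (log2 change -0.46, SE 0.11, limma adjusted p = 0.250). The adhesion receptor gene Cd44 was at 25.8, 25.1 and 26.8 FPKM in the WT libraries, against 21.1, 20.2 and 16.9 FPKM in the PP2Aa-deficient ones (log2 change -0.40, SE 0.14, limma adjusted p = 0.408). In both genes the groups did not overlap, whereas in Zbtb32, a transcriptional repressor gene at 2.90 ± 1.08 and 1.40 ± 0.605 FPKM (SD, n = 3), they did. Of the 6 induced genes above WT, Ccl3 changed most, at 68.9 ± 7.97 and 96.5 ± 25.4 FPKM (SD, n = 3), with overlapping groups. Its log2 change was 0.45 (SE 0.20, limma adjusted p = 0.539).

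**Figure D3:**
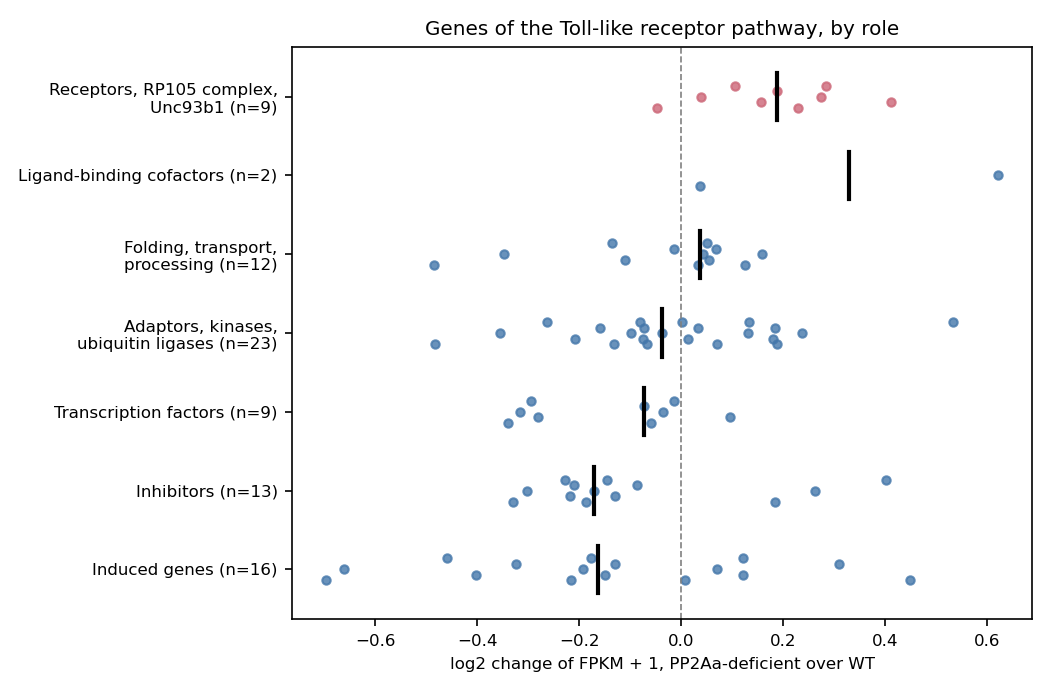
Log2 change of FPKM + 1 between PP2Aa-deficient and WT B cells (x axis) for the tested genes of the receptor group (red) and of 6 other groups of the pathway (blue), with black bars at group medians; the vertical scatter only separates points. The receptor group has a median of 0.19, and transcription factors, inhibitors and induced genes have medians from -0.17 to -0.07.

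Markers of cell types were summed in the same libraries. Of 59 tested markers 0 were called by limma over all genes. At an unadjusted limma p under 0.05, 6 were higher and 16 lower, against 5.06% and 4.41% of all tested genes. Over all tested genes, 48.9% lay above WT and 51.1% below. The summed FPKM of 8 marginal zone B cell markers was 221 to 231 over the WT libraries, against 245 to 316 over the PP2Aa-deficient ones, with all 8 above WT and none at 0. As a share of the WT mean it was 141%, 109% and 139% in PP2Aa-deficient replicates 1 to 3, where Cd180 was at 127%, 108% and 130%, Tlr1 at 140%, 123% and 142% and Ppp2r1a at 36.9%, 66.2% and 33.2%. Replicate 2 was nearest to WT for these and for Ly86 and Tlr7, but farthest from it for Tlr9, at 106%, 109.9% and 106%, and for Unc93b1, at 95.6%, 110.1% and 103%. A link of these levels to Ppp2r1a was not tested. Plasma cell markers summed to 1352 to 2074 FPKM over the WT libraries, against 739 to 1005 over the PP2Aa-deficient ones, with 8 of 8 below WT. Igj, the largest part of the WT sums, had means of 925 (WT) and 282 FPKM (PP2Aa-deficient), whereas Irf4, Mzb1 and Slamf7 overlapped. Follicular markers, mostly Ccr7, summed to 1670 to 2117 and 1388 to 1907 FPKM, which overlapped, with 6 of 7 below WT. Klf2 was higher without overlap, and Bach2 and Satb1 were lower without overlap. The 12 macrophage and monocyte markers summed to 194 to 368 FPKM over the WT libraries, against 111 to 169 over the PP2Aa-deficient ones, mostly from Apoe. Itgam, Mertk, Marco and Fcgr1 were under 1 FPKM throughout. Of the 8 tested, 2 were above WT and 6 below. Cd68, Lyz2 and C1qb were at 105%, 100% and 99.8% of the WT mean. Emr1, C1qc and Apoe were at 15.6%, 27.1% and 42.6% of it, and C1qa and Csf1r were also below WT. Emr1 was at 2.93 to 8.59 FPKM over the WT libraries, against 0.242 to 1.91 over the PP2Aa-deficient ones. Emr1 and Apoe were lower without overlap, and the rest of the tested markers overlapped. Macrophages and dendritic cells also express genes of this group, such as Tlr2, Tlr4 and Tlr7. The part of these cell types in the level of any receptor or partner gene was not tested.

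**Figure D4:**
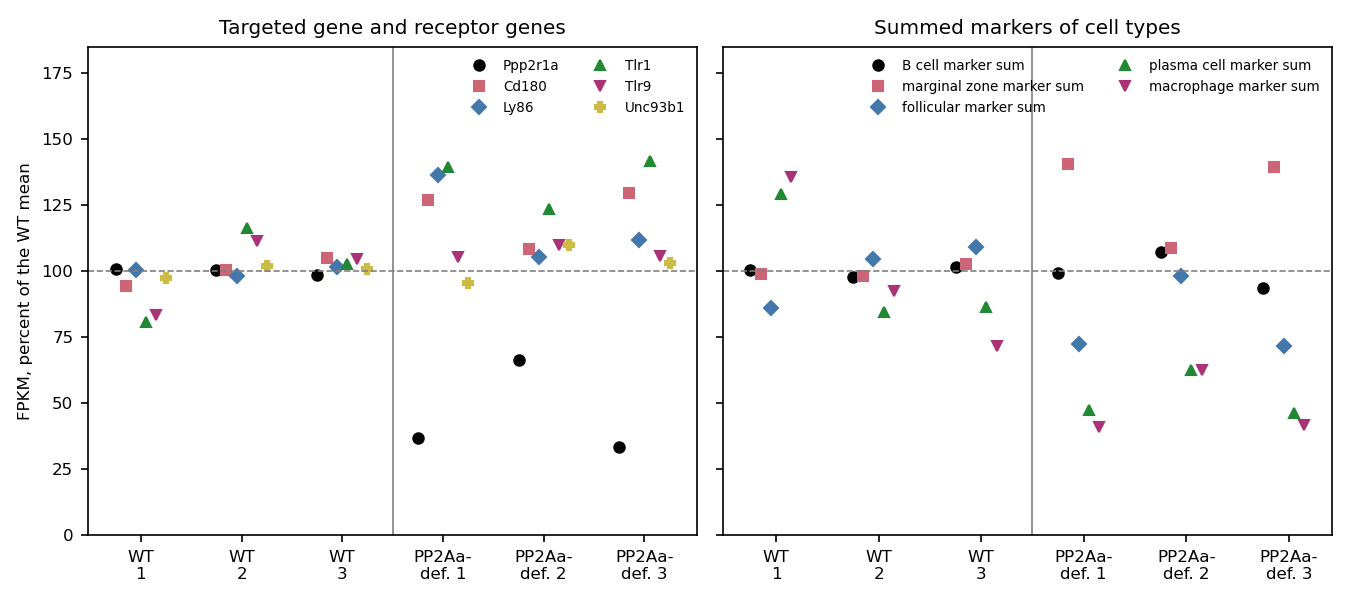
FPKM in each library as a percent of the WT mean (y axis, from 0; the dashed line is 100%) for Ppp2r1a and 5 receptor genes (left) and for summed markers of 5 cell types (right). PP2Aa-deficient replicate 2, with 66.2% of Ppp2r1a, has Cd180 at 108% and marginal zone markers at 109%, where the other PP2Aa-deficient libraries have 127% to 130% and 139% to 141%. It is also nearest to WT for the follicular, plasma cell and macrophage sums, at 98.3%, 62.7% and 62.4%. For Tlr9 and Unc93b1 it is farthest from WT, at 109.9% and 110.1%. A link to Ppp2r1a was not tested.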

How the data were processed

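The authors deposited 1 table of FPKM values, 1 column per library and 22815 rows. Per the submitters' processing notes, the tools were TopHat2 2.0.10, BWA, Cuffnorm and Cufflinks 2.2.1, without roles. Genome build, annotation and library scaling were not given in the sources used. A deposited plate sheet, whose other values are well positions, writes miRNA CTRL beside the WT wells and miRNA target beside those of the other group. Groups follow the source labels, and the difference is not settled. The sheet marks 6 further wells with the word CpG, not analysed here.

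In the table, 27 rows with dates for symbols were left out. Log2(FPKM + 1) of 9425 genes (at least 1 FPKM in at least 3 libraries) was tested with limma 3.58.1 in R 4.3.3 (two-sided, mean-variance trend, Benjamini-Hochberg adjustment at 0.05). The fit was tried on simulated data with changes larger than those of the receptor genes. Detection of changes as small as theirs was not tested. The log2(FPKM + 1) scale understates changes of low genes. A value of 0 can be a failed estimate. Fragment numbers are estimates from low-value steps and GENCODE M21 lengths. Python 3.11.15, numpy 2.4.6, pandas 2.3.3 and matplotlib 3.10.9 gave summaries and figures.

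One gene of the B cell marker list is not reported here and was left out of its sum. The members and lists were chosen with earlier results of these data known. The rule named all members, every other Toll-like receptor and cofactor, and from each pathway list the called genes or otherwise up to 3 per direction of smallest unadjusted p under 0.05. Ccl3 was named outside this rule and is not among the recomputed values below. Alternatives were other pseudocounts, filters, scalings and limma settings, a term for Xist (over 10 FPKM), the 4 libraries without it, and each library left out. Marker lists for conventional and plasmacytoid dendritic, T, natural killer, neutrophil, eosinophil and mast, and B-1 cells were also summed.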

Additional observations from a re-analysis of the deposited data

How the results depend on the processing

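Under all 16 alternatives, 0 of the receptor and partner genes and 0 of the pathway genes were called by limma. Of 326 recomputed values of named genes, 318 kept their direction and side of the threshold. Ppp2r1a passed without PP2Aa-deficient replicate 2. Changes near 0 turned sign: Tlr9 was at -0.0039 in the 4 libraries without Xist, and between -0.014 and 0.19 with 1 library left out, where Tlr2 lay between -0.13 and 0.031, Unc93b1 between -0.011 and 0.0902 and Ly96 between -0.26 and 0.41, with -0.26, -0.042 and -0.092 without WT replicates 2 and 3 and PP2Aa-deficient replicate 1. Tlr1, Cd180, Ly86 and Tlr7 stayed above WT, from 0.26 to 0.52, 0.20 to 0.36, 0.12 to 0.31 and 0.19 to 0.40, with limma adjusted p from 0.421 to 0.710, 0.370 to 0.792, 0.438 to 0.877 and 0.441 to 0.919. Over all genes 3 were called, against 5 with the filter at 5 FPKM, 11 with quantile normalization, 9 without the mean-variance trend, 16 with array weights, and 1 to 13 with 1 library left out (13 without PP2Aa-deficient replicate 2, 5 without WT replicate 1, 1 without WT replicate 2 or 3). The split between higher and lower calls also depended on the setting: 0 and 3 as reported, 3 and 2 with the filter at 5 FPKM, 7 and 4 with quantile normalization, 4 and 5 without the trend, 11 and 5 with array weights, 4 and 1 without WT replicate 1, and 1 and 12 without PP2Aa-deficient replicate 2. A term for Xist, with 1 such library in each group, cannot move a log2 change. The cause was not tested. Members whose groups did not overlap numbered 4 under both scalings and 4 to 6 with 1 library left out, a count chosen after seeing the data, with 11.2% to 14% of all genes higher without overlap in those smaller groups. No paired analysis was possible because the labels give no replicate numbers. Tlr2, Tlr3, Tlr4 and Tlr6 rest on few fragments, which limits what can be seen for them.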

Other observations

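Among 5644 tested genes with a mean of at least 5 FPKM, likeness to a receptor gene was measured as the root-mean-square difference of log2(FPKM + 1) values over the 6 libraries after centring each gene. Nearest to Tlr1 were 2210018M11Rik at 0.027, Gtf3c1, a subunit of the transcription factor of RNA polymerase III genes, at 0.034, and Tmem206 at 0.055. Gtf3c1 was at 5.11, 7.35 and 6.32 FPKM in the WT libraries, against 8.97, 7.76 and 8.51 FPKM in the PP2Aa-deficient ones, with WT replicate 1 lowest, as in Tlr1. Nearest to Cd180 were Por and Ccnt2, both at 0.040, and Acsf2 at 0.048. Nearest to Ly86 were Sod2, the mitochondrial superoxide dismutase, at 0.050, Rad52 at 0.056 and Fam49a at 0.057. Sod2 was at 19.1, 17.7 and 18.7 FPKM in the WT libraries, against 23.5, 18.6 and 20.2 FPKM in the PP2Aa-deficient ones, with PP2Aa-deficient replicate 1 highest, as in Ly86. The nearest to Tlr9 were Nedd9, Ankrd44 and Aar2, each at 0.042, and to Unc93b1 Zfp106 at 0.029, Parp1 at 0.033 and Ctsd at 0.034. These are rankings over 6 libraries and describe likeness only.

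Of the other marker lists, those of eosinophil and mast cells and of B-1 cells differed between groups without overlap, and the rest overlapped. Conventional dendritic cell markers summed to 10.96 to 17.2 FPKM over the WT libraries, against 10.4 to 12.5 over the PP2Aa-deficient ones, plasmacytoid dendritic cell markers to 49.7 to 67.1 and 55.7 to 59.97, and T cell markers to 20.5 to 36.8 and 20.9 to 27.4. Neutrophil markers summed to 1.91 to 6.19 and 0.788 to 6.40 FPKM, with Elane and Camp at 0 in all libraries, and natural killer cell markers to 9.15 to 18.6 and 5.54 to 10.3. Eosinophil and mast cell markers summed to 22.2 to 41.9 FPKM over the WT libraries, against 6.43 to 15.8 over the PP2Aa-deficient ones, with Epx and Fcer1a at 0 throughout. Nearly all of that sum was Prg2, the 1 tested gene of the 8, at 39.9, 21.2 and 33.9 FPKM in the WT libraries, against 5.66, 14.6 and 13.7 FPKM in the PP2Aa-deficient ones. B-1 cell markers summed to 38.8 to 41.4 and 33.6 to 37.9 FPKM, with Cd5 and Itgam under 1 FPKM throughout. Ptpn22, the largest part of that sum, differed the other way, at 16.5, 24.0 and 24.2 FPKM in the WT libraries, against 26.1, 23.9 and 28.9 FPKM in the PP2Aa-deficient ones, with overlapping groups.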
